A study of Mus musculus with 8 samples.

Results

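Resting splenic B cells that lack the enhancers hs3b and hs4 were compared with resting splenic B cells that keep them. The lacking side held the libraries of mice homozygous for the 3'RR deletion and of mice homozygous for the hs3b-hs4 deletion, and the kept side held those of mice homozygous for the 3'PAL deletion and of wild-type mice. These are 4 of the 8 libraries of the series, 2 on each side, and were chosen by genotype and state alone. The other 4 libraries are of the same genotypes after lipopolysaccharide, a bacterial activator of B cells, was given at 5 µg/mL for 48 hours in culture (stimulated). All animals had a mixed background that the labels write as 129/C58BL/6. Cells were obtained from spleen on a density gradient followed by removal of CD43-positive cells, and each library came from a pool of equal cell numbers of 4 animals. The deletions are in the germline, so every cell of the mouse carries them and not only B cells. The labels give the 3'PAL deletion by its name alone.

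The immunoglobulin heavy chain (IgH) locus carries its main enhancer cluster, the 3' regulatory region (3'RR), downstream of Igha, the last of its constant genes. The whole cluster is absent in the 3'RR deletion, whereas the hs3b-hs4 deletion takes out its distal enhancers, which are known to act at a distance on transcription of the heavy chain and on the germline transcripts that precede class switching. The 3'PAL deletion keeps the enhancers and is known to break up the inverted repeats around them. A resting mature B cell carries IgM and IgD on its surface, made from Ighm and Ighd by alternative RNA processing, and makes little IgG. The comparison asks what the 2 lacking genotypes share that the 2 kept genotypes do not.

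The side of a library did not order the transcriptome as a whole. Each side holds 2 different genotypes, so the spread within a side includes the difference between its genotypes, and 1 pooled library per genotype gives no measure of the spread between animals. Of 14789 genes tested, 851 differed at least 2-fold between the 3'RR and hs3b-hs4 deletion libraries and 558 between the 3'PAL deletion and wild-type libraries, against 438 to 899 between libraries of different sides. The fewest, 438, lay between the hs3b-hs4 and 3'PAL deletion libraries. Total counts ran from 17883683 to 27942044 per resting library, so that 3 counts, used as a floor, stood for 0.106 to 0.156 CPM (counts scaled to library size with TMM factors of edgeR). The wild-type library stood apart in several genes. Lars2 took 15.4% of its estimated transcript counts, compared with at most 1.7% in the other 3 resting libraries, and AY036118 took 1.94% of its gene counts, compared with at most 0.0842%. Igj, the gene of the J chain that joins IgM and IgA units, stood at 394 and 887 CPM in 3'RR and hs3b-hs4 deletion cells, against 604 and 125 CPM in 3'PAL deletion and wild-type cells. The summed erythroid markers and most kappa V segments, given with their lists, were also lowest in the wild-type library. B cell markers were abundant in all 4 libraries. Ms4a1, which encodes CD20, stood at 790 and 713 CPM in 3'RR and hs3b-hs4 deletion cells, against 895 and 815 CPM in 3'PAL deletion and wild-type cells.

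No gene was called between lacking and kept cells by edgeR's quasi-likelihood test with Benjamini-Hochberg adjustment over all 14789 genes (0% called, lowest adjusted p = 0.349). At an unadjusted p under 0.05 stood 869 genes, of which 685 were higher (4.63% of genes tested) and 184 lower (1.24%). The count of calls depended on the method. limma-voom also called 0 genes, DESeq2 called 74, and edgeR called 71 when every gene with a count was kept in the fit. DESeq2 and edgeR without the filter shared 51 of these genes, 51 of 74 and 51 of 71. A fit with a term for each genotype, over both states, called 12 genes, of which 5 were also called in both of these. Those 5 are Emb, Dnah8, Il1b, Lrp1 and Col14a1. The fit with genotype terms takes the spread between the genotypes of a side out of its error and has 2 residual degrees of freedom, so its p-values do not measure that spread. The text below therefore gives values by library, counts of genes whose libraries did not overlap, and the fitted fold changes with standard errors (SE). A member that is named was not called by the main edgeR fit, which filters low counts. Calls by the other methods are given for some named genes only.

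Both lacking libraries lay above both kept libraries in 3101 genes (21% of genes tested) and below them in 2010 genes (13.6%), so that absence of overlap alone is common with 2 libraries a side. A gap of at least 1 log2 unit between the nearest libraries, on log2(CPM + 1), was rare. It was found with lacking cells higher in 26 genes (0.176%) and with lacking cells lower in 6 genes (0.0406%). The 6 lower genes were Ighg3, Emb, Dnah8, 2 heavy chain V segments and 1 predicted gene. In stimulated cells 21 of the 32 had the same direction, and 14 of the 32 again showed no overlap in that direction. All 6 lower genes were among these 14. Of the 26 higher genes, 19 were below 1 CPM in every stimulated library, where a gap can rest on few counts. The same shares over all genes in stimulated cells were not computed, so these counts have no background to be read against.

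**Figure D1:**
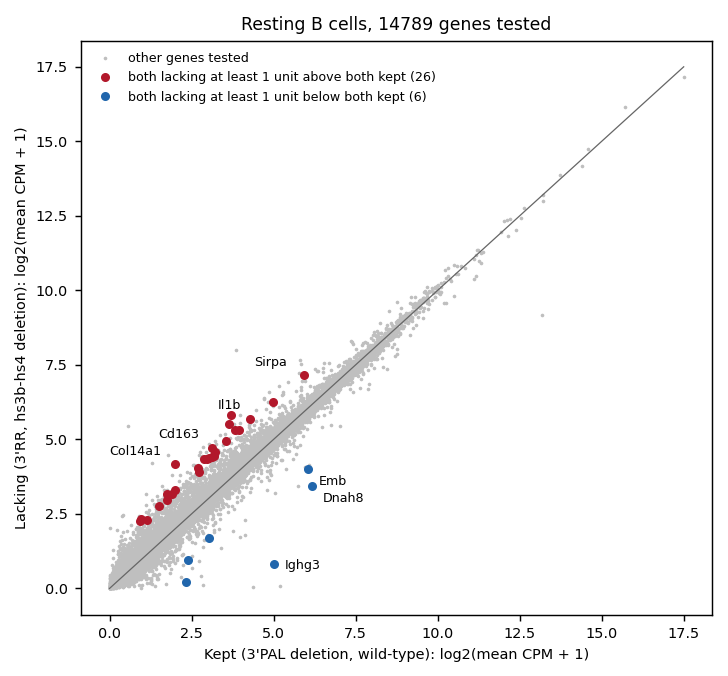
Mean level in lacking cells (vertical) against mean level in kept cells (horizontal) of resting B cells for 14789 genes, both as log2(mean CPM + 1), with the diagonal as equal level. The 26 genes in red and 6 genes in blue are those whose nearest libraries are at least 1 log2 unit apart.

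As a sum, IgG constant transcripts were near absent in 3'RR deletion cells and lower in hs3b-hs4 deletion cells than in kept cells. The single IgG genes, given below, did not all follow the sum. The 4 IgG genes together stood at 0.565 CPM (16 counts) in 3'RR deletion and 15.4 CPM (396 counts) in hs3b-hs4 deletion cells, against 51.7 CPM (1261 counts) in 3'PAL deletion and 61.6 CPM (1186 counts) in wild-type cells. Both lacking libraries lay below both kept ones. The ratio of the side means was 0.141, and an exact two-sided permutation test of the log2 sums gave p = 0.333, the smallest p that 2 libraries against 2 can give. The 2 lacking libraries were themselves far apart, with an SD of 3.37 log2 units against 0.178 between the kept ones. Without the hs3b-hs4 deletion library the ratio was 0.00994, and without the 3'RR deletion library it was 0.273.

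Ighg3, the constant gene of IgG3 on chromosome 12 (113359665 to 113361232, minus strand, GRCm38), had the clearest gap of the IgG genes. It stood at 0.176 and 1.36 CPM (5 and 35 counts) in 3'RR and hs3b-hs4 deletion cells, against 33.3 and 29.5 CPM (811 and 569 counts) in 3'PAL deletion and wild-type cells. The hs3b-hs4 deletion library was thus much nearer to the 3'RR deletion library than to either kept one, and the log2 fold change was -5.37 ± 1.9 (SE; edgeR adjusted p = 0.836). Without the filter on low counts edgeR gave Ighg3 an adjusted p of 0.0278, and the adjusted p ran from 0.0278 to 0.886 over the alternatives that used all 4 resting libraries. In stimulated cells the same gene stood at 0.0372 and 22.9 CPM in 3'RR and hs3b-hs4 deletion cells, against 35.3 and 97.7 CPM in 3'PAL deletion and wild-type cells, so that only the 3'RR deletion library was near the floor there.

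The other IgG genes differed in which libraries were low. Ighg2b, on chromosome 12 (113306389 to 113307933), stood at 0.353 and 5.3 CPM in 3'RR and hs3b-hs4 deletion cells, against 11.6 and 13.7 CPM in 3'PAL deletion and wild-type cells (log2 fold change -2.17 ± 1.41 SE). Its libraries did not overlap, although the hs3b-hs4 deletion library lay closer to the kept ones than the 3'RR deletion library did. Ighg2c was high in the wild-type library alone, with 0.0353 and 0.623 CPM in 3'RR and hs3b-hs4 deletion cells, against 0.738 and 11 CPM in 3'PAL deletion and wild-type cells (-4.16 ± 1.85 SE). Ighg1 had no count in 3'RR deletion cells and 8.14 CPM in hs3b-hs4 deletion cells, against 6.15 and 7.37 CPM in 3'PAL deletion and wild-type cells, so its sides overlapped. The IgG genes resemble each other and their reads may be split among them, so the sum is given beside its parts. How far reads were split was not tested. In hs3b-hs4 deletion cells Ighg1, at 8.14 CPM, was the largest part of the sum of 15.4 CPM.

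Igha and Ighe, which encode the heavy chains of IgA and IgE, lie nearest to the deleted enhancers. Igha, on chromosome 12 (113258768 to 113260236), stood at 5.58 and 31.5 CPM in 3'RR and hs3b-hs4 deletion cells, against 15.1 and 15.6 CPM in 3'PAL deletion and wild-type cells. The 2 lacking libraries were the lowest and the highest of the 4, so no common direction was seen. Ighe had 0 and 2 counts in 3'RR and hs3b-hs4 deletion cells, against 2 and 21 counts in 3'PAL deletion and wild-type cells, and was too rare to be tested.

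**Figure D2:**
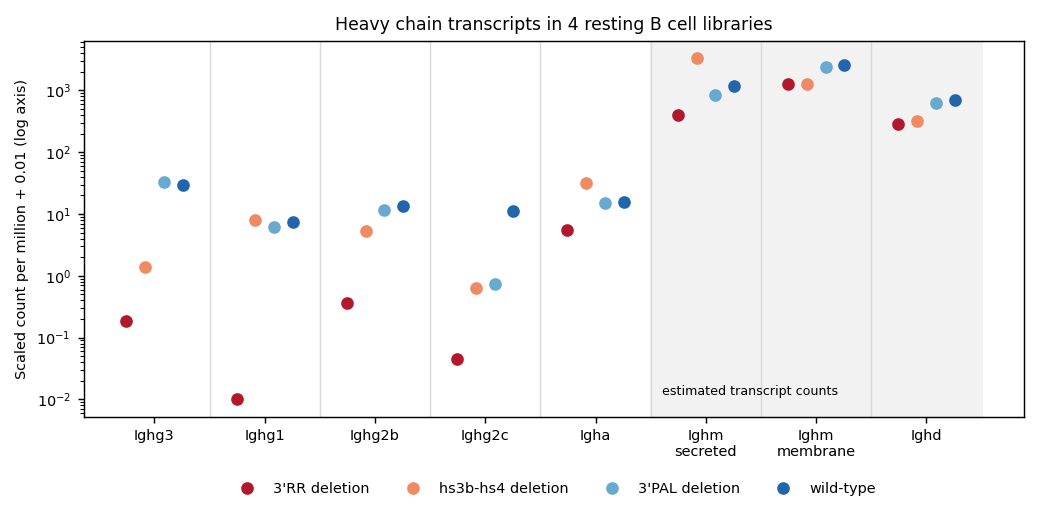
Level of heavy chain constant transcripts in the 4 resting libraries, 1 point per library, on a log axis with 0.01 CPM added so that the library without an Ighg1 count can be shown. Gene counts are plotted for the IgG genes and Igha, and estimated transcript counts on the shaded ground for the Ighm forms and Ighd, where membrane Ighm and Ighd are lower in both lacking libraries.

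Ighm, the constant gene of IgM on chromosome 12 (113418950 to 113422730), was not ordered by side as a whole. It stood at 1271 and 3724 CPM in 3'RR and hs3b-hs4 deletion cells, against 2478 and 2836 CPM in 3'PAL deletion and wild-type cells (log2 fold change -0.09 ± 0.628 SE). The transcript table separates its membrane and secreted forms, which share their first coding exons and part at the end of the last shared one. The coding ends are shown because the counts of the forms rest on reads that reach into them. They were read from the GENCODE M21 transcripts (GRCm38, chromosome 12, minus strand), 5′ to 3′, with 21 shared bases in lower case and the form-specific coding bases up to the stop codon in capitals. The capitals of the membrane form lie at 113418953 to 113419068 and, after an intron, at 113418826 to 113418834, and those of the secreted form at 113420867 to 113420928.
Ighm membrane form: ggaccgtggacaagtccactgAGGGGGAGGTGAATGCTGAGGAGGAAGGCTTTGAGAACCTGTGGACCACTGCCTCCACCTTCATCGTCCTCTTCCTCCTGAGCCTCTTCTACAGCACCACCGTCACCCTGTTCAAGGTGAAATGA
Ighm secreted form: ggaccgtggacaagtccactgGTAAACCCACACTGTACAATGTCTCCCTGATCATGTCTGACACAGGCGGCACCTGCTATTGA
The 125 capitals of the membrane form encode the stretch that anchors IgM in the cell membrane, and the 62 capitals of the secreted form encode its tailpiece.

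The membrane form of Ighm was lower in both lacking libraries, and the secreted form was not. Membrane Ighm stood at 1267 and 1253 CPM (from estimated counts) in 3'RR and hs3b-hs4 deletion cells, against 2405 and 2544 in 3'PAL deletion and wild-type cells, a ratio of side means of 0.509. The 2 libraries within each side were close to each other, and the sides were well apart. In a fit over 42330 transcripts, added after the data were seen, its log2 fold change was -0.93 ± 0.129 (SE; edgeR adjusted p = 0.387). That fit called 0 transcripts, with 1757 at an unadjusted p under 0.05. In stimulated cells the membrane form stood at 1909 and 2165 in 3'RR and hs3b-hs4 deletion cells, against 2777 and 2473 in 3'PAL deletion and wild-type cells, a smaller gap in the same direction.

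Secreted Ighm split the lacking side. It stood at 401 and 3365 CPM (from estimated counts) in 3'RR and hs3b-hs4 deletion cells, against 829 and 1188 in 3'PAL deletion and wild-type cells. Per transcript length, the secreted form made up 26.8% and 75.7% of Ighm in 3'RR and hs3b-hs4 deletion cells, against 28.5% and 35.1% in 3'PAL deletion and wild-type cells. In hs3b-hs4 deletion cells, whose Ighm gene count was the highest of the 4 libraries, the membrane form was thus lower and the secreted form higher than in both kept libraries.

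Ighd, which encodes the heavy chain of IgD, could be measured from the transcript table only. It stood at 286 and 321 CPM (from estimated counts) in 3'RR and hs3b-hs4 deletion cells, against 615 and 690 in 3'PAL deletion and wild-type cells, a ratio of 0.464. The sides did not overlap, and each side's libraries were close. Summed per gene, Ighd had a log2 fold change of -1.11 ± 0.251 (SE; edgeR adjusted p = 0.66 over 14907 genes). In stimulated cells Ighd was at 77.8 and 95.9 in 3'RR and hs3b-hs4 deletion cells, against 166 and 98.9 in 3'PAL deletion and wild-type cells, and the hs3b-hs4 deletion and wild-type libraries were close there.

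Heavy chain V segments, which encode the variable end of the heavy chain and are expressed in the same transcripts, gave a mixed picture. Of 94 segments tested, 34 were lower in both lacking libraries than in both kept libraries, and 0 were higher, against backgrounds of 13.6% and 21%. Their median log2 fold change was -0.47, where the median of all genes was 0.04. Their summed level was 189 and 661 CPM in 3'RR and hs3b-hs4 deletion cells, against 407 and 453 CPM in 3'PAL deletion and wild-type cells. The 3'RR deletion library was the lowest of the 4 in 83 segments, and the hs3b-hs4 deletion library was the highest in 43. Without the 3'RR deletion library the median was -0.15, and without the hs3b-hs4 deletion library it was -1.34.

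Light chain transcripts, whose loci lie on other chromosomes, were not lower on the lacking side. Igkc, the constant gene of the kappa chain, stood at 1278 and 2048 CPM in 3'RR and hs3b-hs4 deletion cells, against 1579 and 839 CPM in 3'PAL deletion and wild-type cells (log2 fold change 0.46 ± 0.442 SE). Iglc2, a lambda constant gene, stood at 216 and 278 CPM in 3'RR and hs3b-hs4 deletion cells, against 208 and 211 CPM in 3'PAL deletion and wild-type cells (0.24 ± 0.279 SE). Of 96 kappa V segments tested, 24 were higher in both lacking libraries, a share near the background of 21%, and 1 was lower (background 13.6%), with a median of 0.46. The wild-type library was the lowest of the 4 in 82 of these segments, and without it the median was 0.14.

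Beyond the constant genes, differences in the neighbours of the IgH locus were small. Among 22 genes tested within 1 Mb beyond Igha, on the side where the enhancers lie, 13 were higher in both lacking libraries (background 21%) and 0 were lower (background 13.6%), with a median log2 fold change of 0.25. Of 25 listed IgH neighbours tested, 12 were higher and 1 was lower without overlap (median 0.18). In both sets 1 gene, Crip2, was higher at an unadjusted p under 0.05 (background 4.63%). Crip2, a LIM domain protein gene, stood at 11.1 and 5.61 CPM in 3'RR and hs3b-hs4 deletion cells, against 4.84 and 3.74 CPM in 3'PAL deletion and wild-type cells (0.96 ± 0.376 SE). Gpr132, which encodes a lysolipid and proton sensing receptor, stood at 84.9 and 117 CPM in 3'RR and hs3b-hs4 deletion cells, against 84.6 and 68.6 CPM in 3'PAL deletion and wild-type cells (0.40 ± 0.182 SE). Nudt14 (0.58 ± 0.265 SE) and Zbtb42 (0.64 ± 0.33 SE) were low in all libraries, at no more than 5.05 CPM.

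Of 29 factors known to bind IgH enhancers or to hold DNA loops, 14 were lower in both lacking libraries (background 13.6%) and 4 were higher (background 21%), with a median of -0.15. The differences were small. Mef2c, a transcription factor of B cells, stood at 352 and 388 CPM in 3'RR and hs3b-hs4 deletion cells, against 425 and 495 CPM in 3'PAL deletion and wild-type cells (-0.31 ± 0.129 SE). Ikzf1, which encodes Ikaros, stood at 352 and 400 CPM in 3'RR and hs3b-hs4 deletion cells, against 490 and 427 CPM in 3'PAL deletion and wild-type cells (-0.29 ± 0.124 SE). Spi1, which encodes the factor PU.1 of B and myeloid cells, went the other way, at 51.9 and 52 CPM in 3'RR and hs3b-hs4 deletion cells, against 34 and 42.2 CPM in 3'PAL deletion and wild-type cells (0.45 ± 0.17 SE). Relb, a subunit of NF-kB, was also higher (0.26 ± 0.0988 SE). Of the 24 B cell identity and follicular genes, 8 were lower and 1 was higher without overlap (median -0.06). At an unadjusted p under 0.05, 0 of the 24 were higher (background 4.63%) and 0 were lower (background 1.24%). Among them Spib (-0.29 ± 0.123 SE), Ebf1 (-0.24 ± 0.119 SE), Pax5 (-0.26 ± 0.133 SE) and Foxp1 (-0.18 ± 0.111 SE), all transcription factors of B cells, had the lowest p.

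Emb had the lowest p of all genes and was lower in both lacking libraries in both states. It encodes embigin, a membrane glycoprotein that accompanies monocarboxylate transporters, and lies on chromosome 13 (117220625 to 117274098, plus strand). Emb stood at 13.7 and 16.7 CPM in 3'RR and hs3b-hs4 deletion cells, against 76.6 and 53.6 CPM in 3'PAL deletion and wild-type cells (log2 fold change -2.10 ± 0.206 SE; edgeR adjusted p = 0.349). In stimulated cells it stood at 14.3 and 12.7 CPM in 3'RR and hs3b-hs4 deletion cells, against 78.8 and 68.3 CPM in 3'PAL deletion and wild-type cells (-2.45 ± 0.208 SE; edgeR adjusted p = 0.141). The 4 lacking libraries of both states lay between 12.7 and 16.7 CPM, and the 4 kept ones between 53.6 and 78.8 CPM. Whether both states were sampled in the same mice is unknown here. DESeq2 gave Emb an adjusted p of 2.76e-16, edgeR without the filter 8.3e-06 and the fit with genotype terms, whose error leaves out the spread between genotypes, 0.0411. Emb, and Dnah8 and Glo1 in the next paragraph, were chosen after their values were seen.

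Dnah8, which encodes an axonemal dynein heavy chain, was lower in both lacking libraries as well. It lies on chromosome 17 (30624354 to 30875264) and stood at 14.4 and 5.41 CPM in 3'RR and hs3b-hs4 deletion cells, against 76.7 and 66.1 CPM in 3'PAL deletion and wild-type cells (-2.84 ± 0.58 SE; edgeR adjusted p = 0.705). In stimulated cells it stood at 5.54 and 2.81 CPM in 3'RR and hs3b-hs4 deletion cells, against 20.7 and 9.63 CPM in 3'PAL deletion and wild-type cells. Its neighbour Glo1, which encodes the detoxifying enzyme glyoxalase 1, ends 11.7 kb before it. Glo1 stood at 22.2 and 21.2 CPM in 3'RR and hs3b-hs4 deletion cells, against 69.4 and 32.2 CPM in 3'PAL deletion and wild-type cells (-1.23 ± 0.361 SE). Its sides did not overlap in either state, with 34.6 and 32.2 CPM in stimulated 3'RR and hs3b-hs4 deletion cells, against 105 and 68.2 CPM in stimulated 3'PAL deletion and wild-type cells.

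**Figure D3:**
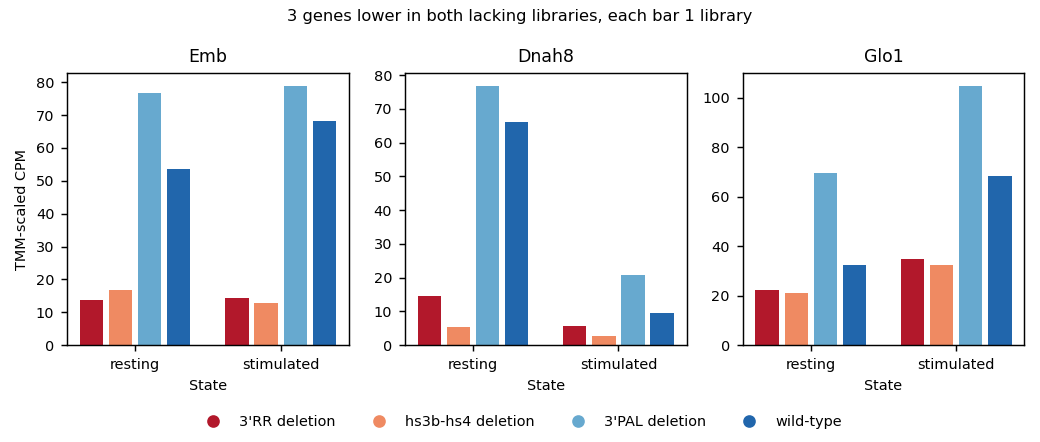
TMM-scaled CPM of Emb, Dnah8 and Glo1 in resting and stimulated libraries, 1 bar per library from 0. In both states the bars of both lacking genotypes are lower than those of both kept genotypes, with Emb between 12.7 and 16.7 CPM in lacking and between 53.6 and 78.8 CPM in kept libraries.

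Of the 26 genes that were at least 1 log2 unit higher in both lacking libraries, 1, Sirpa, was in the lists of myeloid, T cell and NK cell markers used here. These lists are short, so a gene outside them can still be one of myeloid cells, as Tyrobp is. The count therefore does not show how many of the 26 are myeloid genes. Sirpa, the inhibitory receptor for CD47, stood at 159 and 128 CPM in 3'RR and hs3b-hs4 deletion cells, against 58.2 and 62.3 CPM in 3'PAL deletion and wild-type cells (log2 fold change 1.25 ± 0.448 SE). Tyrobp, the adaptor of activating myeloid and NK receptors, stood at 85 and 66.8 CPM in 3'RR and hs3b-hs4 deletion cells, against 31.2 and 30.4 CPM in 3'PAL deletion and wild-type cells (1.30 ± 0.237 SE). Cd163, the scavenger receptor for haemoglobin, stood at 26.3 and 23.6 CPM in 3'RR and hs3b-hs4 deletion cells, against 8.37 and 7.06 CPM in 3'PAL deletion and wild-type cells (1.69 ± 0.275 SE). In these genes the libraries of each side were close and the sides were apart.

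Sash1, a signalling scaffold gene, stood at 42.2 and 58 CPM in 3'RR and hs3b-hs4 deletion cells, against 17.6 and 19.1 CPM in 3'PAL deletion and wild-type cells (log2 fold change 1.45 ± 0.177 SE; edgeR adjusted p = 0.456). Il1b, an inflammatory cytokine gene, stood at 51.8 and 37.9 CPM in 3'RR and hs3b-hs4 deletion cells, against 8.2 and 14.5 CPM in 3'PAL deletion and wild-type cells (1.98 ± 0.34 SE; edgeR adjusted p = 0.657). Col14a1, a collagen gene, had the highest fold change of the 26, at 24.3 and 9.93 CPM in 3'RR and hs3b-hs4 deletion cells, against 3.86 and 2.08 CPM in 3'PAL deletion and wild-type cells (2.52 ± 0.533 SE). The rest include Ptgs2, the inducible cyclooxygenase, S100a4, a calcium-binding protein gene, Itgad, an integrin subunit gene, and Ckb, a creatine kinase gene, with log2 fold changes from 1.42 for S100a4 to 2.24 for Itgad. The 3'RR deletion library was the highest of the 4 in 22 of the 26. After culture 19 of the 26 were below 1 CPM in every library. These genes were chosen after their values were seen, and which cells their counts came from was not tested.

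Most listed markers of macrophages and dendritic cells were higher in both lacking libraries. Of 18 monocyte and macrophage markers tested, 15 were higher at an unadjusted p under 0.05 (background 4.63%) and 15 without overlap (background 21%), 0 were lower by either measure, and the median log2 fold change was 1.65. Their summed level was 1965 and 817 CPM in 3'RR and hs3b-hs4 deletion cells, against 431 and 561 CPM in 3'PAL deletion and wild-type cells. The log2 fold change was positive in 17 of the 18, and the lowest was -0.39. The 3'RR deletion library was the highest in 17 of the 18. Without it the median was 0.86, and without the wild-type library the median was 1.77. Every listed marker in the table had a count in a resting library. In a bulk sample, more cells of a type and more RNA per cell cannot be told apart.

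Emr1, which encodes the macrophage marker F4/80, stood at 97.6 and 54.8 CPM in 3'RR and hs3b-hs4 deletion cells, against 26.4 and 28.5 CPM in 3'PAL deletion and wild-type cells (log2 fold change 1.47 ± 0.264 SE; edgeR adjusted p = 0.657). Csf1r, the receptor for macrophage growth factor, stood at 255 and 114 CPM in 3'RR and hs3b-hs4 deletion cells, against 50.5 and 61.6 CPM in 3'PAL deletion and wild-type cells (1.72 ± 0.423 SE). Hmox1, the haem-degrading enzyme of red pulp macrophages, stood at 197 and 98.1 CPM in 3'RR and hs3b-hs4 deletion cells, against 44.2 and 63.4 CPM in 3'PAL deletion and wild-type cells (1.46 ± 0.347 SE). Vcam1, an adhesion molecule of these macrophages, stood at 303 and 101 CPM in 3'RR and hs3b-hs4 deletion cells, against 50.6 and 58.8 CPM in 3'PAL deletion and wild-type cells (1.89 ± 0.465 SE). In all 4 genes the 3'RR deletion library was the highest, and the hs3b-hs4 deletion library was above both kept ones. DESeq2 called each of the 4, with adjusted p from 0.000834 for Emr1 to 0.0151 for Vcam1.

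Of 11 dendritic cell markers tested, 5 were higher at an unadjusted p under 0.05 (background 4.63%) and 7 without overlap (background 21%), 0 were lower by either measure, and the median was 1.12. Their sum was 358 and 276 CPM in 3'RR and hs3b-hs4 deletion cells, against 125 and 153 CPM in 3'PAL deletion and wild-type cells. Flt3, a growth factor receptor of dendritic cells and progenitors, stood at 45.5 and 29.2 CPM in 3'RR and hs3b-hs4 deletion cells, against 16.2 and 18.2 CPM in 3'PAL deletion and wild-type cells (log2 fold change 1.12 ± 0.211 SE). Zbtb46, a transcription factor of classical dendritic cells, stood at 22.1 and 17.9 CPM in 3'RR and hs3b-hs4 deletion cells, against 7.79 and 8.93 CPM in 3'PAL deletion and wild-type cells (1.26 ± 0.278 SE). Itgax, which encodes CD11c, stood at 95 and 84.5 CPM in 3'RR and hs3b-hs4 deletion cells, against 27.3 and 46.8 CPM in 3'PAL deletion and wild-type cells (1.28 ± 0.455 SE). Here the 2 lacking libraries were closer to each other than in the macrophage list, with summed levels that differed 1.3-fold against 2.41-fold. After stimulation Flt3 stood between 43.6 and 50.7 CPM in all libraries, whereas Zbtb46 stood between 1.09 and 1.94 CPM. Which cells the Flt3 counts came from was not tested.

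**Figure D4:**
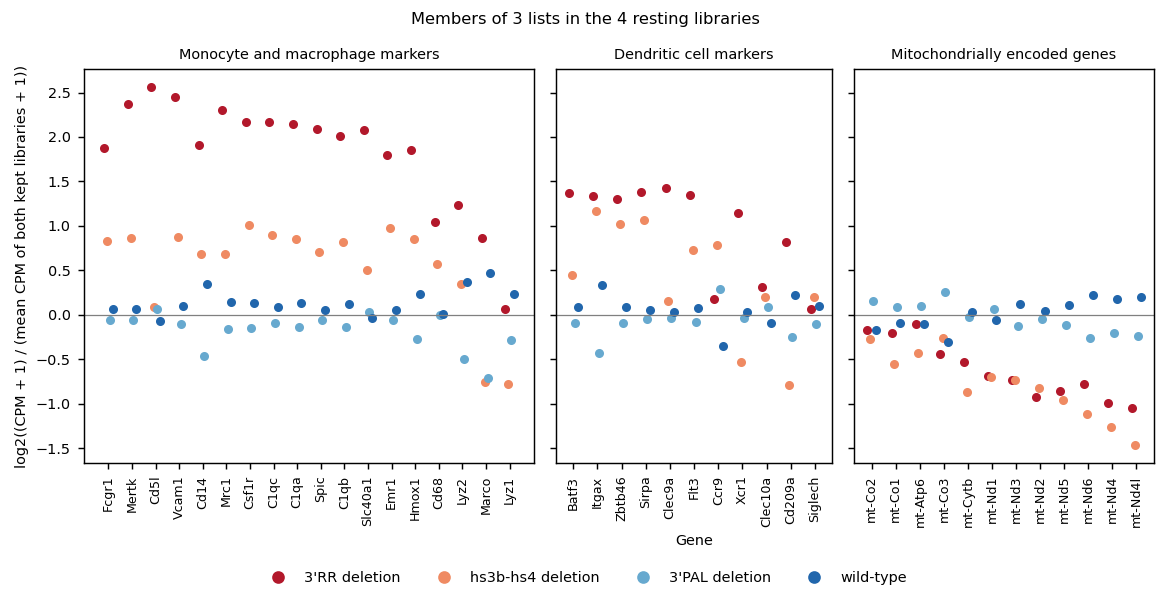
Level of each tested member of 3 lists in the 4 resting libraries, as log2 of CPM + 1 over the mean of both kept libraries, 1 point per library. Most macrophage and dendritic markers are highest in the 3'RR deletion library with the hs3b-hs4 deletion library between it and the kept ones, while most mitochondrial genes are lower in both lacking libraries to a similar extent.

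Markers of other cells were tested as well. T cell markers summed to 59.5 and 69 CPM in 3'RR and hs3b-hs4 deletion cells, against 39.6 and 35.4 CPM in 3'PAL deletion and wild-type cells, with 2 of 7 tested higher without overlap (background 21%). Cd4, which macrophages and dendritic cells of the mouse can also carry, stood at 24.3 and 40.2 CPM in 3'RR and hs3b-hs4 deletion cells, against 10 and 13.7 CPM in 3'PAL deletion and wild-type cells (log2 fold change 1.44 ± 0.425 SE). NK cell markers summed to 17.9 and 18.6 CPM in 3'RR and hs3b-hs4 deletion cells, against 12.7 and 12 CPM in 3'PAL deletion and wild-type cells. Neutrophil markers summed to 10.5 and 7.44 CPM in 3'RR and hs3b-hs4 deletion cells, against 2.87 and 3.01 CPM in 3'PAL deletion and wild-type cells. Erythroid markers summed to 13730 and 10840 CPM in 3'RR and hs3b-hs4 deletion cells, against 21950 and 3213 CPM in 3'PAL deletion and wild-type cells, so that the 2 kept libraries were the highest and the lowest. The 9 megakaryocyte and platelet markers tested all had a positive log2 fold change, from 0.35 to 1.05 with a median of 0.68, but none was higher without overlap. They summed to 126 and 56.4 CPM in 3'RR and hs3b-hs4 deletion cells, against 46.4 and 81.7 CPM in 3'PAL deletion and wild-type cells. Of 6 endothelial and stromal markers (median -0.25), 1 was lower without overlap, a share near the background of 13.6%. The part of these other cells in the higher genes described here was not tested.

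Mitochondrially encoded genes were lower in lacking cells as a group. Of 12 tested, 8 were lower at an unadjusted p under 0.05 (background 1.24%), 10 were lower without overlap (background 13.6%) and 0 were higher, with a median log2 fold change of -0.76. Their sum was 7022 and 5828 CPM in 3'RR and hs3b-hs4 deletion cells, against 9528 and 8967 CPM in 3'PAL deletion and wild-type cells. The fold changes were largest in subunits of respiratory complex I. mt-Nd2 stood at 216 and 232 CPM in 3'RR and hs3b-hs4 deletion cells, against 400 and 424 CPM in 3'PAL deletion and wild-type cells (-0.88 ± 0.104 SE; edgeR adjusted p = 0.456). mt-Nd4 stood at 177 and 147 CPM in 3'RR and hs3b-hs4 deletion cells, against 307 and 401 CPM in 3'PAL deletion and wild-type cells (-1.13 ± 0.16 SE). mt-Nd5 had a log2 fold change of -0.91 ± 0.134 (SE) and mt-Nd4l one of -1.28 ± 0.203 (SE). The 2 lacking libraries were close to each other in these genes. Without each of the 4 libraries in turn the median ran from -0.89 to -0.70.

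DESeq2 called mt-Nd2 with an adjusted p of 1.2e-09 and mt-Nd4 with one of 4.26e-06. The mitochondrial ribosomal RNA mt-Rnr2, which depends on how well ribosomal RNA was removed, took 16.4% and 13.6% of all counts in 3'RR and hs3b-hs4 deletion cells, against 19.8% and 17.5% in 3'PAL deletion and wild-type cells. It was thus lower in both lacking libraries too, and its part in the lower mitochondrial counts was not tested. In stimulated cells the median of the mitochondrial list was -0.09.

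Lists of B cell activation and signalling had medians between 0.01 and 0.09, near the 0.04 of all genes, while the shares of members higher without overlap were above the background of 21% (13.6% for lower). Of 30 B cell receptor signalling genes, 9 were higher and 4 lower without overlap (median 0.01), and 3 were higher at an unadjusted p under 0.05 (background 4.63%). Among them Lair1, an inhibitory receptor that myeloid cells also carry, stood at 24.2 and 24.4 CPM in 3'RR and hs3b-hs4 deletion cells, against 12.6 and 9.97 CPM in 3'PAL deletion and wild-type cells (log2 fold change 1.11 ± 0.186 SE). Rasgrp3, an activator of Ras, and Pik3cd, the delta catalytic subunit of PI3 kinase, had smaller differences of 0.28 ± 0.0976 and 0.31 ± 0.119 (SE). Of 27 NF-kB and TLR4 response genes, 11 were higher and 2 lower without overlap (median 0.05), and 4 were higher at an unadjusted p under 0.05, with Nfkbia, the inhibitor of NF-kB, at 173 and 176 CPM in 3'RR and hs3b-hs4 deletion cells, against 144 and 130 CPM in 3'PAL deletion and wild-type cells (0.35 ± 0.11 SE). Of 25 immediate early and stress genes, 10 were higher and 4 lower (median 0.06). Atf3, a stress-induced transcription factor, stood at 288 and 301 CPM in 3'RR and hs3b-hs4 deletion cells, against 159 and 183 CPM in 3'PAL deletion and wild-type cells (0.78 ± 0.215 SE). Rgs1, a regulator of chemokine receptor signalling, stood at 520 and 433 CPM in 3'RR and hs3b-hs4 deletion cells, against 282 and 321 CPM in 3'PAL deletion and wild-type cells (0.66 ± 0.294 SE). Of 18 Bcl2 family genes, 7 were higher and 1 lower (median 0.09), and Pmaip1, which encodes the death-promoting protein Noxa, stood at 201 and 178 CPM in 3'RR and hs3b-hs4 deletion cells, against 66.3 and 117 CPM in 3'PAL deletion and wild-type cells (1.05 ± 0.27 SE).

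In the following lists of B cell subsets and antibody secretion, too, more members were higher without overlap than the background of 21%, and fewer were lower than the background of 13.6%. The B cell identity and follicular list, given above, went the other way, with 1 of 24 higher and 8 lower. Of 16 marginal zone B cell genes, 5 were higher and 0 lower without overlap, while the median was -0.06. Plxnd1, a semaphorin receptor gene, stood at 34.4 and 53.1 CPM in 3'RR and hs3b-hs4 deletion cells, against 13.7 and 22.4 CPM in 3'PAL deletion and wild-type cells (log2 fold change 1.28 ± 0.31 SE). Asb2, a ubiquitin ligase subunit gene, stood at 62.2 and 73.5 CPM in 3'RR and hs3b-hs4 deletion cells, against 30.7 and 31 CPM in 3'PAL deletion and wild-type cells (1.14 ± 0.32 SE). Of 12 genes listed for B-1 cells or CD43-positive B cells, 4 were higher and 0 lower (median 0.28), among them Ahr, the aryl hydrocarbon receptor (0.37 ± 0.16 SE). Of 24 genes of plasma cell fate and antibody secretion, 9 were higher and 1 lower (median 0.14). Sdc1, which encodes the plasma cell marker CD138, stood at 11.8 and 14.8 CPM in 3'RR and hs3b-hs4 deletion cells, against 8.57 and 7.16 CPM in 3'PAL deletion and wild-type cells (0.76 ± 0.363 SE). The 7 plasma cell markers summed to 459 and 950 CPM in 3'RR and hs3b-hs4 deletion cells, against 662 and 184 CPM in 3'PAL deletion and wild-type cells, so the sides overlapped. Of 25 secretory pathway and unfolded protein response genes, 10 were higher and 2 lower (median 0.12), led by Sdf2l1 (0.48 ± 0.113 SE), a gene of the endoplasmic reticulum.

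Other lists are given against the same backgrounds of 21% for higher and 13.6% for lower without overlap. Of 27 class switch and hypermutation genes, 5 were higher and 3 lower without overlap (median 0.02). Of 33 cell cycle genes 1 was higher without overlap (median 0.08). Of 30 interferon response genes 1 was higher and 3 were lower (median 0.00). Oasl2, an interferon-induced gene, was high in a single library, at 8.93 and 0.117 CPM in 3'RR and hs3b-hs4 deletion cells, against 0.164 and 0.519 CPM in 3'PAL deletion and wild-type cells, and its log2 fold change of 3.75 ± 1.6 (SE) became -1.46 without the 3'RR deletion library. Of 14 genes of MHC class II presentation 6 were higher and 1 lower (median 0.14), and of 15 genes of MHC class I and the immunoproteasome 5 were higher and 0 lower (median 0.16), shares of higher members above the background. At an unadjusted p under 0.05, 0 of the class II and 1 of the class I genes were higher. Ctss, a protease that prepares class II molecules in B cells and macrophages, stood at 388 and 334 CPM in 3'RR and hs3b-hs4 deletion cells, against 279 and 261 CPM in 3'PAL deletion and wild-type cells (0.42 ± 0.185 SE).

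**Figure D5:**
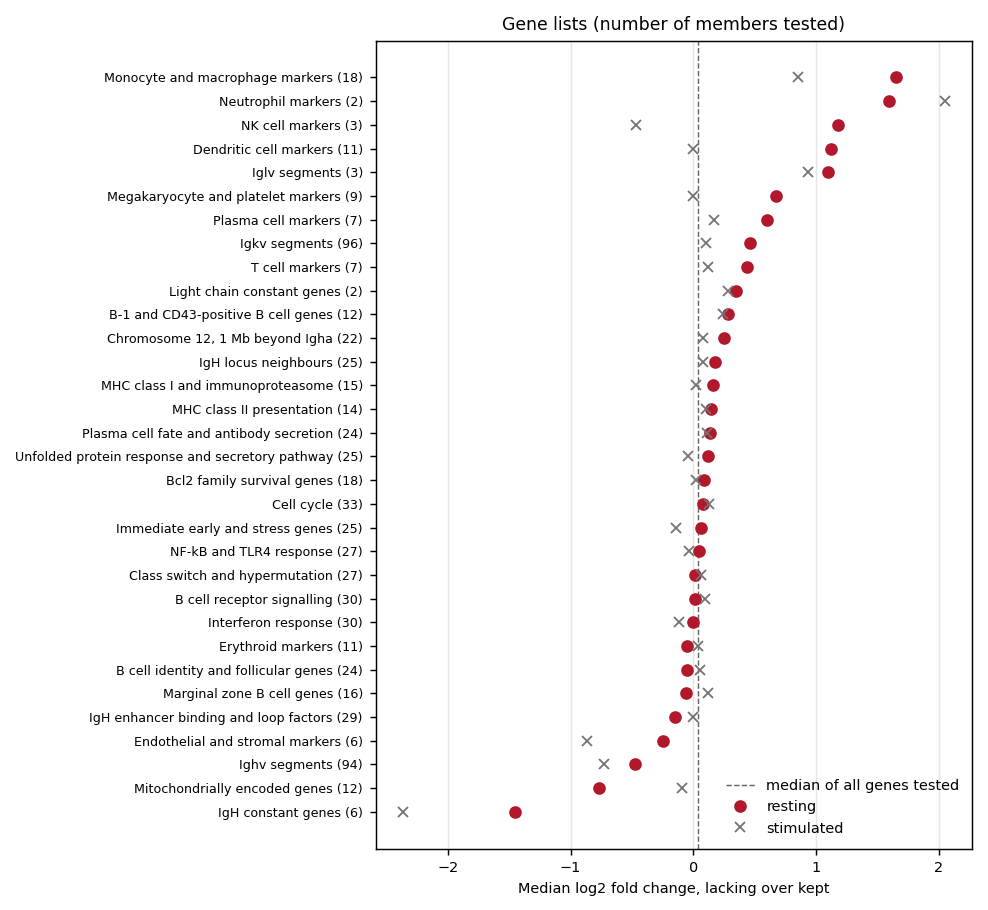
Median log2 fold change of each gene list except that of sex-linked genes, lacking over kept. Red points are resting cells and grey crosses are stimulated cells, with the number of members tested in brackets. The dashed line is the median of all genes in resting cells, 0.04. In resting cells the macrophage list has a median of 1.65 and the mitochondrial list one of -0.76, while most lists of B cell function lie near 0.

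The difference between lacking and kept cells was also compared between the states. No gene was called for a change of this difference (0% of 14789; edgeR quasi-likelihood test), with 307 genes at an unadjusted p under 0.05. limma-voom called 0 genes and DESeq2 called 2. For Ighg3 the log2 difference between states was -2.83 ± 2.33 (SE), and for Emb it was 0.35 ± 0.281 (SE).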

How the data were processed

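The gene table holds whole-number counts per gene symbol, deposited by the authors and made with STAR 2.4.0a and featureCounts (Subread 1.4.6-p1) on GRCm38, per the submitters' processing notes. The transcript table holds estimated counts made by the authors with kallisto 0.42.3, per the same notes, and was rounded before tests. Reads came from stranded libraries of ribosomal RNA depleted total RNA, per the labels' protocols. No statement on annotation version or strand setting is in the sources used here. The deposited TPM table was not used. An entry without a gene name (at most 0.0342% of a resting library's counts) and 92 spike-in entries without counts were left out.

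All 8 libraries, in 4 groups of 2 by side and state, entered 1 quasi-likelihood fit in edgeR 4.0.16 (R 4.3.3) after filterByExpr (14789 genes left) and TMM scaling, with 4 residual degrees of freedom and a biological coefficient of variation of 25.8%. Genotypes served as replicates, so p-values measure the spread between these libraries. A standard error is the size of a log2 fold change divided by the square root of its F statistic. DESeq2 1.42.0 and limma-voom (limma 3.58.1) were alternatives. The fit was also run on simulated data, in which each gene and library was drawn independently. That run cannot show how the fit behaves when genotypes of a side differ in many genes together. At most 4 members of a list, those with the lowest p, and the immunoglobulin constant genes were named by rule, other genes after their values were seen. Some genes that meet the rule are not reported here. V segments and predicted genes were counted and not named. The comparison and the gene lists were chosen with earlier results of these data known.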

Additional observations from a re-analysis of the deposited data

How the results depend on the processing

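Between lacking and kept resting cells edgeR called 0 genes, and also 0 with the resting libraries alone, with DESeq2 size factors, library size alone, a minimum of 1 CPM, kallisto counts of genes or (added after seeing the data) transcripts, erythroid genes, AY036118 and Lars2 left out of scaling, and without each library. It called 71 without the filter on low counts and 12 with genotype terms, DESeq2 called 74 and limma-voom 0. For the difference between states DESeq2 called 2, and every other alternative run called 0. Genes at least 1 log2 unit apart numbered 79 to 345 (higher) and 15 to 129 (lower) without each library, since fewer libraries then have to stay apart. The IgG ratio ran from 0.00994 to 0.273 without each library and from 0.126 to 0.146 otherwise. Of 59 genes named with a fold change, 55 kept their direction in all alternatives run. The exceptions were Ighm (log2 fold change -1.07 to 0.49 without each library in turn), Ighg1 (-10.44 to 0.27), Igha (-1.46 to 1.04, -0.25 with limma-voom and -0.21 with genotype terms) and Oasl2 (-1.46 to 4.74). The cause was not tested. Resting and stimulated libraries paired by genotype as a replicate block gave 0 calls for the difference between states. Between lacking and kept cells no paired analysis was possible because the sides share no genotype and the labels number no replicates. Ighg2c, Ighe and, in 3'RR deletion cells, all IgG genes rest on few counts.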
